A study of Mus musculus with 6 samples.

Results

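The genes described here encode the nuclear subunits of the mitochondrial respiratory chain and ATP synthase. They were chosen by symbol: every gene name in the 6 count tables that begins with Nduf followed by A, B, C, S or V and a digit, with Sdha to Sdhd, with Uqcr, with Cox4 to Cox8 or with Atp5, leaving out names that mark a pseudogene. The rule found 84 of 48397 gene names, of which 37 fall under complex I, 4 under complex II, 8 under complex III, 18 under complex IV and 17 under complex V. The expression filter of the test kept 81 of them, and Cox7b2, Cox8b and Cox8c did not pass it.

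Islets, the endocrine clusters of the pancreas, were from C57B6 mice of wild-type genotype, and the labels give the cells as mixed. After a night of recovery in RPMI-1640 medium, islets received either DMSO, the solvent control, or recombinant mouse prolactin at 500 ng/mL, and both groups were kept for 24 h. Each group had 3 libraries of polyadenylated RNA. The labels give no age of the animals and do not say whether each library had its own animals or culture. The p-values therefore reflect the spread among these 6 libraries alone, and that spread may be technical. Counts per library ranged from 230833584 to 530296257. Beta-cell transcripts were abundant in every library: all 12 beta-cell markers fixed for the check passed the filter and summed to between 117913 and 144360 CPM, the counts per gene relative to the library total.

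Complexes I to IV pass electrons from NADH and succinate to oxygen and, in complexes I, III and IV, pump protons across the inner mitochondrial membrane, and complex V, the ATP synthase, uses the proton gradient to make ATP. Most of the subunits are encoded in the nucleus and imported, while a small set is encoded in mitochondrial DNA. In beta cells the ATP made from glucose closes potassium channels and so couples the sugar to insulin release. Prolactin acts on islets through its receptor, the kinase JAK2 and the transcription factor STAT5.

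Promoters of these genes are known for sites of the factors NRF1 and GABP (also called NRF2), which drive many nuclear genes for mitochondrial proteins. In RefSeq's promoter table for GRCm38.p6, 69 of the 84 genes had an entry, 3 of them through a synonym, with 75 start sites between them. The 250 bases before each start were searched on both strands for NRF1 (GCATGCGC), GABP (CCGGAAG) and the STAT5 pattern (TTCNNNGAA). A window counts once however many matches it holds, and GCATGCGC can match both strands of 1 palindrome. The 4 windows below show the range from no match to several: Ndufa3 had the smallest p of all members, Cox6a1 and Atp5l hold both NRF1 and GABP matches, and Ndufb6 holds the STAT5 pattern at more than 1 place. Capitals mark the matched letters, each sequence is read 5′ to 3′ on the gene's strand, and the last base lies next to the RefSeq start. Ndufa3 is at chr7:3617123-3617372 on the plus strand, and Cox6a1 at chr5:115348959-115349208, Atp5l at chr9:44920743-44920992 and Ndufb6 at chr4:40279422-40279671 are on the minus strand.
Ndufa3: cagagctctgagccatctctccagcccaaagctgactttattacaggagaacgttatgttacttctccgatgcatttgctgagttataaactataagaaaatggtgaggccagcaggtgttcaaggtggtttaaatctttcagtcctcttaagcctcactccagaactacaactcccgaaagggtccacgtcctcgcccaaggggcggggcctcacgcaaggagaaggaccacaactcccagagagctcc
Cox6a1: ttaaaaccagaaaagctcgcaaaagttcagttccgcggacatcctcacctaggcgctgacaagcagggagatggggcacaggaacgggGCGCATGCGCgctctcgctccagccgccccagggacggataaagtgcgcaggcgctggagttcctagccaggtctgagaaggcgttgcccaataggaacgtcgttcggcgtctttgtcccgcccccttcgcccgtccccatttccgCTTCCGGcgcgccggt
Atp5l: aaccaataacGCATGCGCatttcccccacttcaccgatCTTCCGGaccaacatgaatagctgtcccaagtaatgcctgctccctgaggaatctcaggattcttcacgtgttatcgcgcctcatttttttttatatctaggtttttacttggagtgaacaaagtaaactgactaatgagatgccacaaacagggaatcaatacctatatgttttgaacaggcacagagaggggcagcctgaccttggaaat
Ndufb6: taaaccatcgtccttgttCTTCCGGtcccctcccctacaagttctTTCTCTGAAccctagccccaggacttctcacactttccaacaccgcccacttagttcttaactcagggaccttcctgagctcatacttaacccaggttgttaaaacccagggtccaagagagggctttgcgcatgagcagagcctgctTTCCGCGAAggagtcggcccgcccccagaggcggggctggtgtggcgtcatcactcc
The Ndufa3 window held none of the 3 patterns. Cox6a1 held a palindromic NRF1 match that begins 162 bases before the start and a GABP match at 16 bases, and Atp5l held NRF1 at 240 and GABP at 212 bases. These were the 2 genes of the 69 with both patterns. Ndufb6 held GABP at 232 bases and the STAT5 pattern at 205 and 57 bases. Across the 75 windows, NRF1 was present in 8 (10.7%, against 2.26% of all 32851 windows in the table), GABP in 12 (16.0% against 6.91%) and the STAT5 pattern in 6 (8.0% against 7.02%). These are matches of letters, not measured binding. Of these 4 genes, Ndufb6, an accessory subunit of complex I, had a log2 change with prolactin of -0.04 (95% interval -0.19 to 0.11, edgeR adjusted p = 0.824) and Cox6a1 one of -0.03 (-0.18 to 0.12, adjusted p = 0.888), and the values of Ndufa3 and Atp5l follow with their complexes.

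Levels are compared between genes as RPKM, which is CPM per kilobase of the deposited exon length. Medians lay close together: 45.3 RPKM for complex I, 55.4 for complex II, 72.1 for complex III, 56.9 for complex IV and 58.3 for complex V, as means over the 6 libraries. The highest level was that of Cox8a, the ubiquitous form of a small complex IV subunit, at 303 to 351 RPKM in the control libraries. Next came Ndufa1, a small accessory subunit of complex I (253.6 RPKM), Cox6a1 of complex IV (233.2 RPKM), Atp5a1, the alpha subunit of the catalytic head of complex V (229.5 RPKM), and Atp5l, subunit g of its membrane part (223.4 RPKM). Ndufa1 lay above Cox6a1, Atp5a1 and Atp5l in every library, and the order among those genes changed from library to library. The highest of complex II was Sdhd, a membrane anchor (79.1 RPKM), and of complex III Uqcr11, a small supernumerary subunit (106.7 RPKM). The deposited length joins the exons of all transcripts of a gene and so can understate a level. Ndufb2, an accessory subunit of complex I, stood at 1.63 RPKM with a length of 5628 bases. It was also low without the length term, at 9.19 CPM against 39.4 CPM for Ndufb5, another accessory subunit, with a length of 4995 bases. Ndufb2 shares 7.94% of its exonic bases with 3 other gene names. The part of length or shared bases in its level was not tested.

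**Figure D1:**
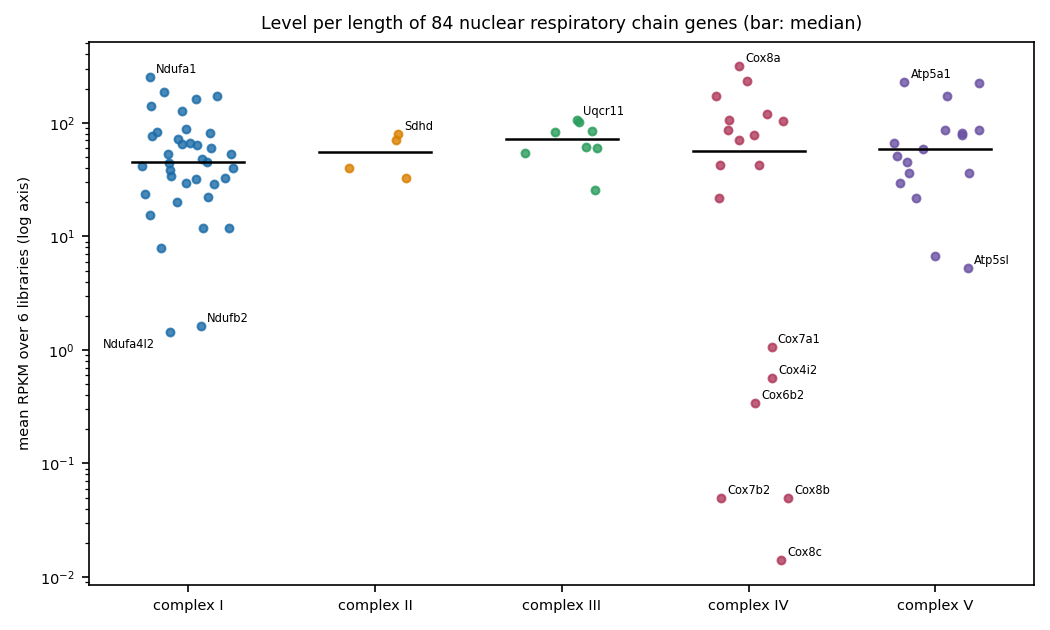
Mean RPKM over the 6 libraries (log axis) of the 84 genes, 1 point per gene, by complex, with a bar at the median. The medians of the 5 complexes lie between 45.3 and 72.1 RPKM, and the points under 2 RPKM are tissue forms of complex IV together with Ndufa4l2 and Ndufb2.

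Several subunits exist as isoforms that are known from particular tissues, and islets carried mainly the ubiquitous form. Cox4i2, the form known from lung and low oxygen, was measured at 0.56, 0.65 and 0.35 RPKM in controls 1 to 3 and at 0.69, 0.49 and 0.66 RPKM in prolactin libraries 1 to 3. Its ubiquitous partner Cox4i1 lay between 94.8 and 111 RPKM, so that Cox4i2 made up 0.37% to 0.63% of the pair in every library. Ndufa4l2, induced by low oxygen in other tissues, was at 1.15 to 1.77 RPKM in control and 1.28 to 1.67 RPKM in prolactin, beside 83.7 to 95.8 RPKM for Ndufa4, which is grouped here by its name although its protein is known as a subunit of complex IV. Cox7a1, the heart and skeletal muscle form, lay between 0.97 and 1.24 RPKM over all libraries, far under Cox7a2 (111 to 130 RPKM) and the related Cox7a2l (87.2 to 115 RPKM), whose protein takes part in joining complexes III and IV. Cox6b2, known from testis, lay between 0.28 and 0.40 RPKM beside 159 to 190 RPKM for Cox6b1. The genes that did not pass the filter had at most 18 counts in a library: Cox7b2 had 4 to 18, Cox8b 2 to 14 and Cox8c 0 to 13. Their partners Cox7b, at 72.4 to 82.1 RPKM, and Cox8a were abundant.

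Cox6a2, the heart and skeletal muscle form of COX6A, differed from that pattern. It stood at 24.7, 21.3 and 24.7 RPKM in control and at 21.5, 20.3 and 18.8 RPKM in prolactin, beside 223 to 252 RPKM for Cox6a1. Its share of the pair was 9.63%, 7.82% and 9.95% in control and 8.04%, 8.30% and 7.77% in prolactin, so the groups overlapped. Of 8 muscle markers, Ckm and Acta1 passed the filter, Myh4, Myh6 and Myl2 had 0 counts in at least 1 library, and the list summed to 2.70 to 3.28 CPM in control and 2.65 to 2.98 CPM in prolactin, against 12.8 to 16.8 CPM for Cox6a2 alone. The part of muscle RNA in the Cox6a2 values was not tested. Counting did not use strand, and 10.3% of the exonic bases of Cox6a2 are shared with Itgad on the opposite strand. The ring of the ATP synthase is built from 1 protein encoded by 3 genes, and all 3 were present: Atp5g3 at 77.8 to 88.0 RPKM, Atp5g2 at 52.7 to 62.5 RPKM and Atp5g1 at 19.9 to 23.4 RPKM. None of these isoforms passed the test between control and prolactin.

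**Figure D2:**
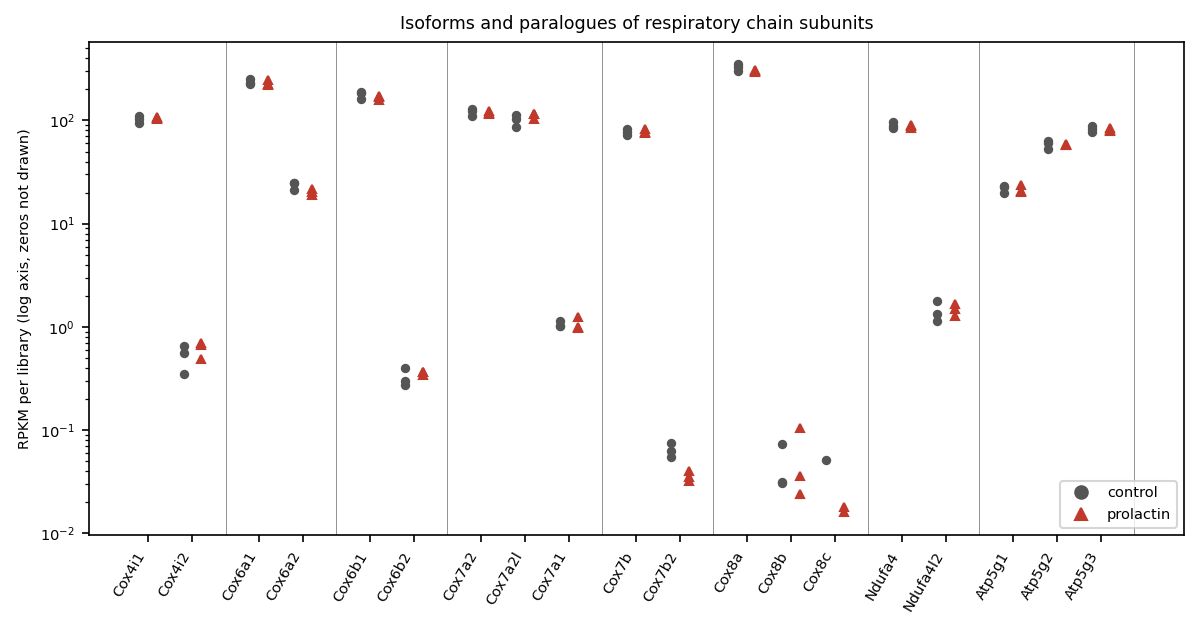
RPKM per library (log axis, zeros not drawn) for the isoform and paralogue groups, with grey circles for the 3 control and red triangles for the 3 prolactin libraries. The ubiquitous form is the higher one in every pair, and Cox6a2, between 18.8 and 24.7 RPKM, is the only muscle or testis form drawn above 2 RPKM.

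The main comparison asks which transcripts differ after a day of prolactin. Nuclear respiratory chain transcripts differed little: the median log2 change, prolactin over control, was -0.04, against 0.00 over all 23924 genes tested, and single genes lay between -0.30 (Ndufa12) and 0.23 (Cox4i2). In edgeR's quasi-likelihood test 0 of 81 passed an adjusted p of 0.05 upward and 0 downward, where 0.652% of all genes tested were higher and 0.104% lower. DESeq2 called 0 and 0 (4.1% and 1.6% of genes with an adjusted p), limma-voom 0 and 0 (0.652% and 0.0878%), and the authors' deposited table, itself from DESeq2, also 0 and 0. At an unadjusted p under 0.05 in edgeR, 0 were higher and 4 lower (background 7.78% and 6.68%). Of the 81 changes 61 were negative and 20 positive, where 11944 of all 23924 were negative. That count rested on the controls: it was 41 of 81 without control 2 and 70 without control 3. Fewer cells of a type and less RNA per cell cannot be told apart in such bulk libraries.

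The precision sets how large a difference could have been missed. The median standard error (SE) of the 81 log2 changes was 0.07, against 0.12 over all genes tested. The 95% confidence interval lay wholly inside a 1.2-fold change for 60 of the 81 genes (29.7% of all genes tested reached this). It lay inside 1.5-fold for 79 (61.1% of all genes) and inside 2-fold for all 81 (81.1%). The median level was 54.0 RPKM for the 84 genes and 1.52 RPKM for all genes tested, and these comparisons were not matched for level. Those with wider intervals than 1.5-fold were Cox4i2 and Cox6b2, both under 1 RPKM.

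**Figure D3:**
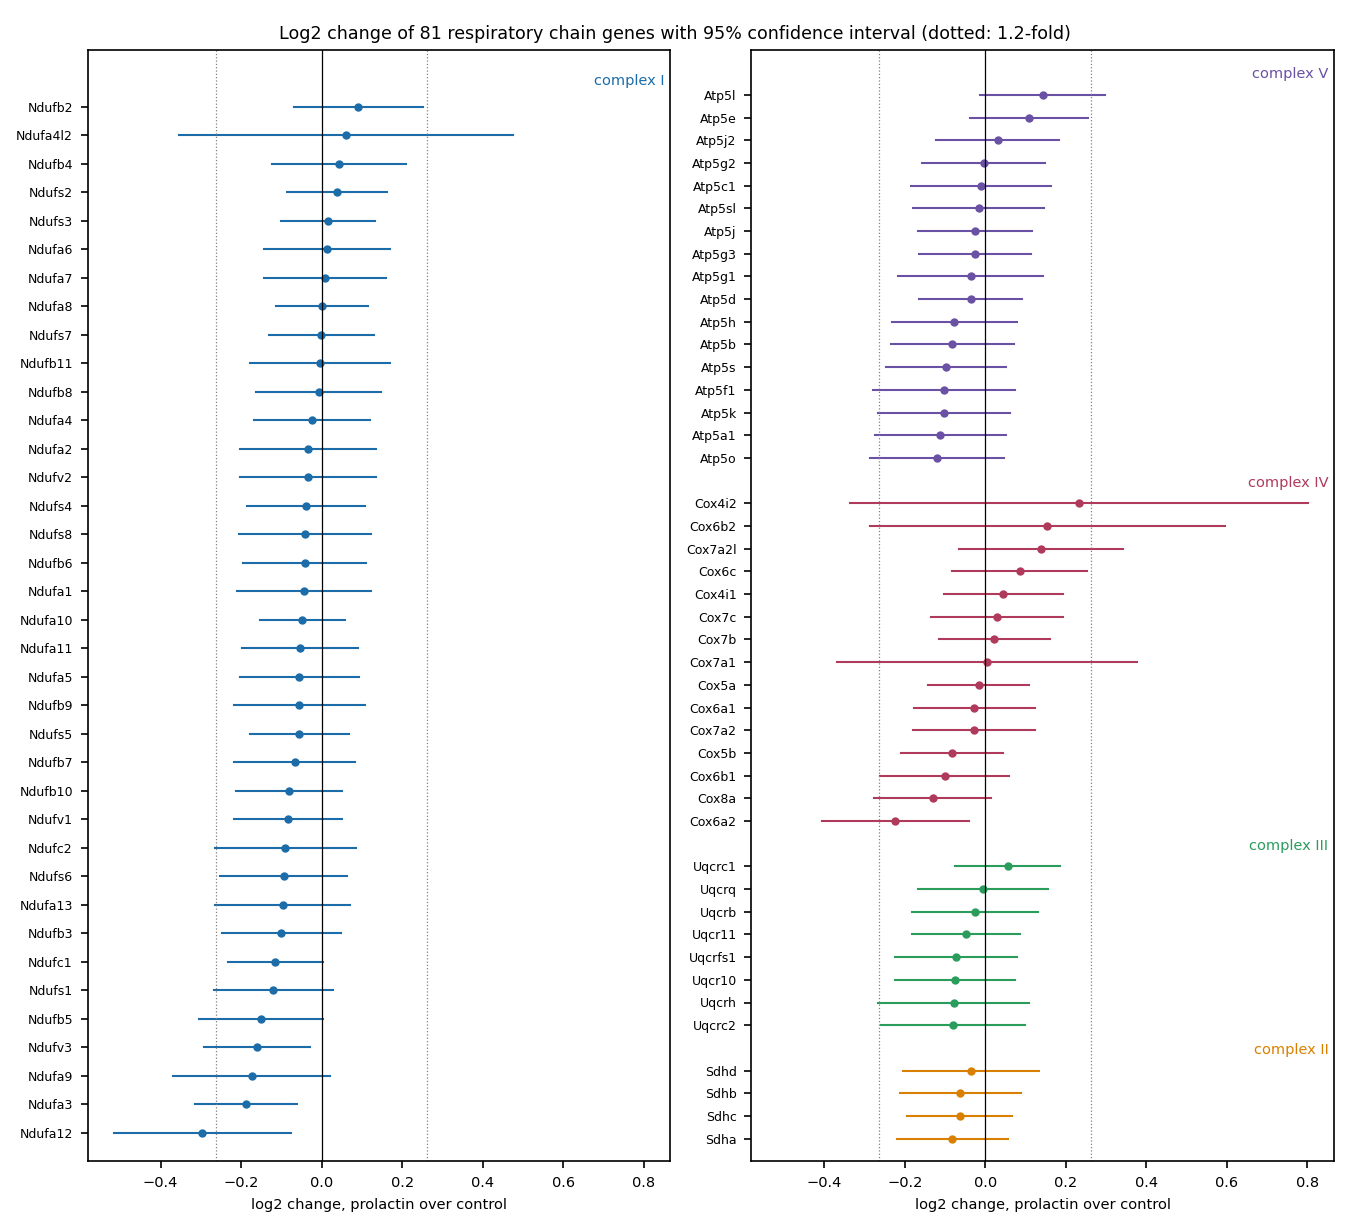
Log2 change of prolactin over control (x axis) for 81 genes by complex, with 95% confidence intervals from edgeR and dotted lines at a 1.2-fold change. Intervals of 77 genes cross 0, and Ndufa3, Ndufa12, Ndufv3 and Cox6a2 lie wholly under 0 before adjustment.

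Complex I oxidises NADH. Its 37 genes had a median log2 change of -0.05, with 29 negative, and 0 passed the adjusted test. The median was 0.01 without control 2 and -0.11 without control 3. The 7 core subunits, among them those that hold the flavin and the iron-sulphur clusters, had a median of -0.03 and the 30 accessory subunits -0.05. The smallest p belonged to Ndufa3, an accessory subunit of the membrane arm (chr7:3617373-3620327, mm10), whose promoter window is printed above. It was measured at 52.2, 54.2 and 49.9 CPM in control and at 47.7, 45.8 and 43.7 CPM in prolactin. All 3 prolactin libraries were below all 3 controls, and the log2 change was -0.19 (SE 0.06, 95% interval -0.32 to -0.06, edgeR adjusted p = 0.176). Ndufa12, an accessory subunit needed late in assembly (chr10:94198955-94221443), had 60.7, 59.6 and 49.9 CPM in control and 42.2, 44.3 and 52.1 CPM in prolactin. Prolactin 3 lay above control 3, and the log2 change of -0.30 (SE 0.10) did not pass either (edgeR adjusted p = 0.213, DESeq2 adjusted p = 0.0579). Ndufv3, a small accessory subunit of the NADH-binding module, had 107.6, 111.0 and 99.3 CPM against 91.7, 96.1 and 96.7 CPM, again without overlap (log2 change -0.16, edgeR adjusted p = 0.259). Of all 81 genes, the libraries did not overlap in 1 upward (Atp5l) and 5 downward (Ndufa3, Ndufv3, Ndufc1, Ndufa10 and Atp5s), against 11.3% and 10.4% of all genes tested. Ndufa1, the most abundant per length, had 110.2, 116.8 and 96.7 CPM in control and 109.5, 101.4 and 103.1 CPM in prolactin, and the groups overlapped.

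Complex II is succinate dehydrogenase, which is also an enzyme of the tricarboxylic acid cycle. All 4 of its genes had negative changes, between -0.08 and -0.04 on the log2 scale, and 0 passed. Sdha, the flavoprotein that oxidises succinate, had 279, 299.6 and 271 CPM in control and 258, 272 and 273 CPM in prolactin (log2 change -0.08, 95% interval -0.22 to 0.06, edgeR adjusted p = 0.597). Sdhc, a membrane anchor, had 108.6, 113.7 and 101.5 CPM against 106.3, 102.9 and 100.4 CPM. Sdhd, the other anchor, had 108.8, 109.4 and 90.8 CPM against 99.3, 101.9 and 100.3 CPM. In each of these 3 genes the groups overlapped, and control 2 was the highest library. Complex III, which passes electrons from ubiquinol to cytochrome c, had a median log2 change of -0.06 over 8 genes with 7 negative. Uqcr10 had 63.4, 65.5 and 55.6 CPM in control and 58.6, 59.0 and 57.5 CPM in prolactin (log2 change -0.08, edgeR adjusted p = 0.659). Uqcrfs1, the Rieske iron-sulphur protein, had 89.0, 91.2 and 77.9 CPM against 84.4, 79.7 and 81.4 CPM. Control 3 was the lowest library for both genes, and the prolactin values lay between it and the other controls. Uqcr11, the most abundant per length, ran from 66.3 to 73.7 CPM in control and from 64.4 to 70.3 CPM in prolactin, with a 95% interval of the log2 change from -0.18 to 0.09.

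Complex IV is cytochrome c oxidase. Its 15 tested genes had a median log2 change of 0.00 (7 negative, 8 positive). The positive ones include Cox7a1, Cox4i2 and Cox6b2, with means of 0.57, 0.45 and 0.38 CPM. The median was -0.02 with a filter of 1 CPM in 3 libraries and 0.02 with upper-quartile scaling. Cox8a was measured at 179.7, 191.5 and 165.2 CPM in control and at 163.7, 166.8 and 159.2 CPM in prolactin, where prolactin 2 lay above control 3 (log2 change -0.13, SE 0.06, edgeR adjusted p = 0.398). Cox6a2 had 16.8, 14.5 and 16.8 CPM against 14.6, 13.8 and 12.8 CPM, with control 2 inside the prolactin range (log2 change -0.22, SE 0.08, 95% interval -0.41 to -0.04, edgeR adjusted p = 0.259). Cox7a2l had 119.0, 128.8 and 99.99 CPM in control and 119.8, 131.5 and 131.3 CPM in prolactin (log2 change 0.14, 95% interval -0.07 to 0.34, adjusted p = 0.537).

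Complex V had a median log2 change of -0.04 over 17 genes with 14 negative. The 5 genes of the catalytic head and central stalk had a median of -0.04, the 3 of the ring -0.03 and the 4 of the peripheral stalk, which holds the head still, -0.09. The membrane accessory genes had a median of 0.03. Atp5l, whose protein helps the enzyme form dimers (chr9:44913250-44920742), was the highest change at 5 CPM or more: 109.3, 117.4 and 98.8 CPM in control and 124.0, 117.4 and 117.9 CPM in prolactin. Prolactin 2 and control 2 differed only in the second decimal (117.41 and 117.38 CPM), and the log2 change of 0.14 (SE 0.07, 95% interval -0.01 to 0.30) had an edgeR adjusted p of 0.385. Atp5e, the epsilon subunit of the central stalk, had 110.4, 119.5 and 103.6 CPM against 124.9, 118.3 and 116.3 CPM (log2 change 0.11, adjusted p = 0.489). Atp5a1, which forms the head together with the beta subunit, had 754, 802 and 686 CPM against 679, 698 and 698 CPM (log2 change -0.11, adjusted p = 0.527). The subunits of this enzyme thus had changes of both signs and none that passed. Atp5s and Atp5sl carry the name of the enzyme but are not among its structural subunits. Atp5o (log2 change -0.12) is the gene with the largest overlap with other gene names, at 44.0% of its exonic bases, so its value is uncertain. In all, 24 of the 84 share exonic bases with another gene name, 10 of them more than 10% and 0 more than 50%.

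The genes varied together across the libraries within a condition. The mean deviation in log2 CPM over the 81 genes was 0.05, 0.09 and -0.09 in controls 1 to 3 and 0.02, -0.03 and -0.04 in prolactin 1 to 3. Each of the 5 complexes had the same order within the controls, with control 2 highest and control 3 lowest. Their summed level was 8601, 9000 and 7800 CPM in control (8467 ± 611, SD, n = 3) and 8351, 8143 and 8084 CPM in prolactin (8193 ± 140, SD, n = 3), so all prolactin sums lay within the control range. Of 77 genes with a mean of 5 CPM or more, control 2 was the highest library for 55 (for 32.8% of the 11590 genes at that level) and control 3 the lowest for 48 (25% of those genes). Control 2 exceeded control 3 in 75 of the 77, or 97.4%, against 62.1% of the 11590 genes. The median log2 ratio of control 2 to control 3 was 0.21 over the 77 genes and 0.05 over the 11590. Prolactin 2 and 3 differed by a median of 0.03 on the log2 scale over these genes, less than any other pair of libraries. The chi-square per degree of freedom of their counts was 6.64, against 78.2 to 220.2 for the other pairs. This compares counting error only, and mates counted separately raise it, so it does not show whether the pair are separate cultures. They were kept as 2 samples, as labelled. With their counts summed, 0 of the 81 genes passed in either direction, where 0.17% of all genes were higher and 0.00811% lower. So few genes passed in that fit that a count of 0 says little about the 81.

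**Figure D4:**
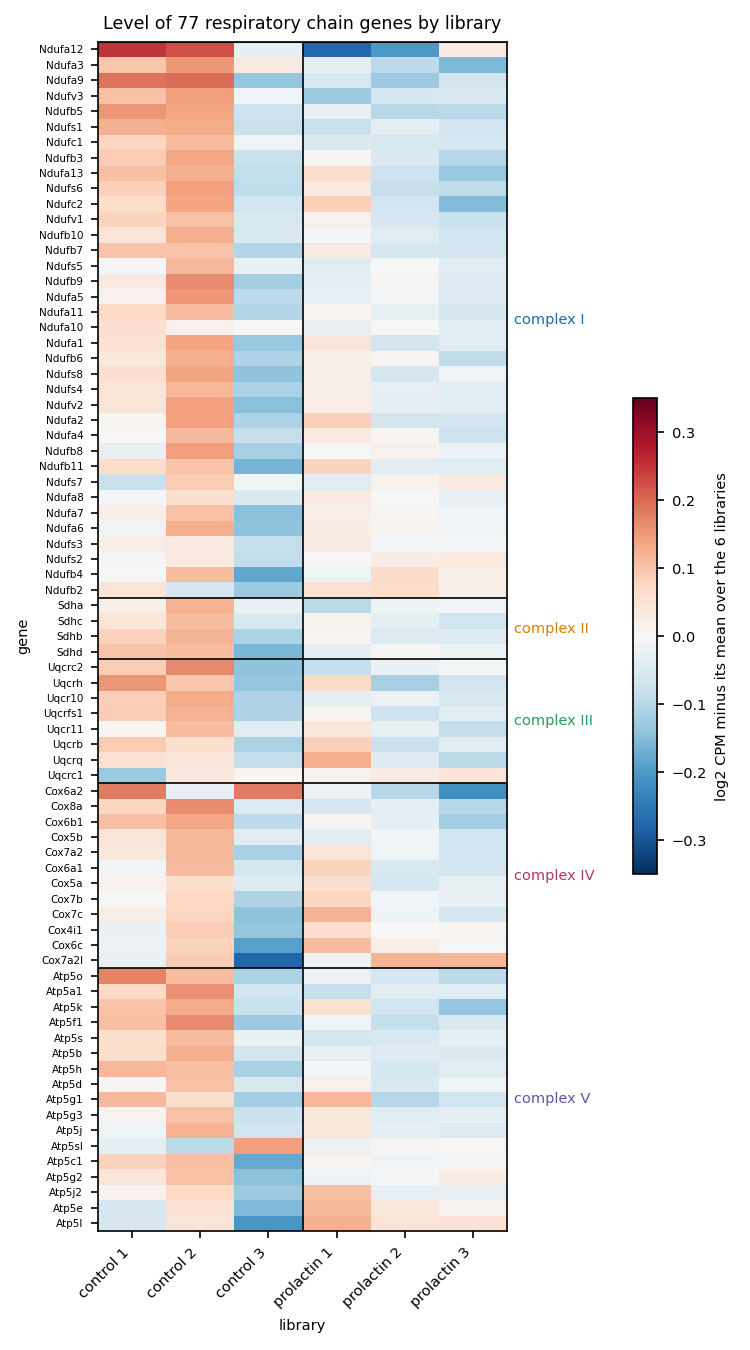
Log2 CPM minus the gene's own mean over the 6 libraries (colour) for the 77 genes with a mean of 5 CPM or more (rows, by complex) in each library (columns, controls left of the line). Control 2 is red and control 3 blue in most rows of every complex, with 75 of 77 higher in control 2 than in control 3.

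The count of called genes changed with the control libraries. Without control 3, Ndufa9, an accessory subunit at the joint of the arms of complex I, passed the edgeR test (log2 change -0.28, SE 0.04, adjusted p = 0.0322), so that 0 were higher and 1 lower, against 1.4% and 0.957% of all genes. With all libraries it had 80.7, 81 and 64.4 CPM in control and 68.0, 64.8 and 67.6 CPM in prolactin (log2 change -0.17, adjusted p = 0.401), so control 3 was its lowest library. In that fit 0 of 81 genes were higher at an unadjusted p under 0.05 and 33, or 40.7%, lower, against 9.86% and 10.9% of all genes, and the median log2 change was -0.10. Without control 2, 0 passed in either direction (0.257% of all genes higher and 0.0408% lower), the counts were 3 lower and 3 higher at an unadjusted p under 0.05 (background 5.77% and 7.09%), and the median was -0.01. Other lists also separated these libraries. The 14 acinar markers, all of which passed the filter, summed to 1587, 590.4 and 3113 CPM in controls 1 to 3 and 2068, 960.1 and 1004 CPM in prolactin 1 to 3. The 12 stromal markers, all of which passed, summed to 562.3, 545.7 and 376.3 CPM in control and 935.0, 759.5 and 765.6 CPM in prolactin, with 2 higher in the test. The 8 alpha-cell markers summed to 37916, 28575 and 23825 CPM in control and 36825, 35943 and 35516 CPM in prolactin, with control 3 lowest. In the test with all libraries 1 of the 8 was higher (edgeR adjusted p = 0.0062) and 0 lower, with 6 changes positive and 2 negative. The 6 delta-cell and PP-cell markers summed to 8024 to 8488 CPM in control and 5663 to 7024 CPM in prolactin, with 1 lower (Sst). The 10 endothelial markers summed to 308.1 to 352.6 CPM in control and 358.6 to 369.1 CPM in prolactin, with 1 higher (Vwf) and all 10 changes positive. No marker of these 5 lists was at 0 in any library, and their part in the respiratory chain values was not tested.

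**Figure D5:**
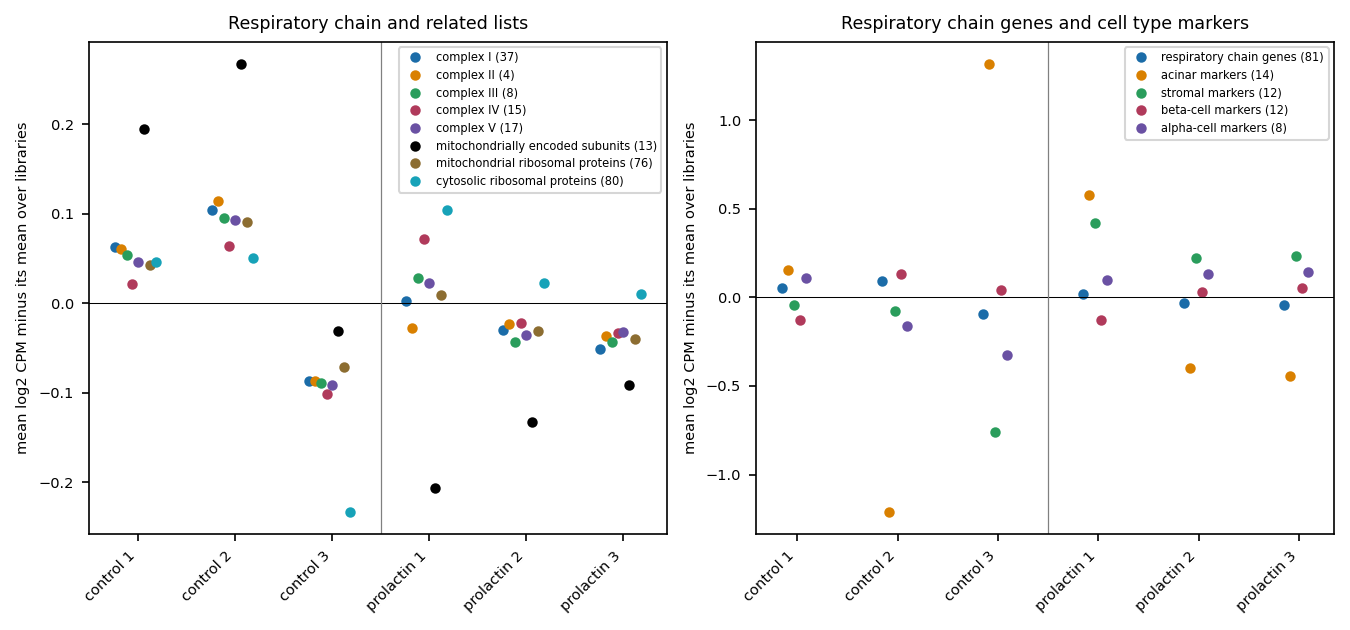
Mean log2 CPM minus the mean over libraries (y axis) for the complexes and related lists (left panel) and for all 81 genes beside cell type markers (right panel, wider scale), 1 point per list and library. In the controls the 5 complexes are highest in control 2 and lowest in control 3, while acinar markers are lowest in control 2 and highest in control 3. Among the prolactin libraries the order is not opposite: all 81 genes together (0.02) and acinar markers (0.58) are both highest in prolactin 1.

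Genes that work with these subunits were described from lists chosen by function. Of 13 subunits encoded in mitochondrial DNA, 0 were higher and 1 lower in edgeR's test, against 0.652% and 0.104% of all genes tested. All 13 changes were negative, with a median log2 change of -0.23. The one that passed was mt-Co2, a core subunit of complex IV, with 149.2, 142.3 and 143.0 CPM in control and 93.9, 91.1 and 106.9 CPM in prolactin (log2 change -0.57, SE 0.07, adjusted p = 0.00818). Without prolactin 2 it did not pass (adjusted p = 0.0687). The number of the 13 that were lower was 4 by DESeq2, 4 without a filter, 4 without control 3 and 2 with the replicate block. Of all genes, 1.6% were lower by DESeq2, 0.957% without control 3 and 0.56% with the replicate block. Without a filter 127 genes were lower, and their share of all genes was not computed, so the 4 found there have no share beside them. The median of the 13 ran from -0.32 without control 3 to -0.15 without control 2. The summed level of the 13 was 28032, 29973 and 23967 CPM in control and 23008, 22935 and 24362 CPM in prolactin, so that control 3 lay among the prolactin libraries. The counts of mt-Co2 were only a small part of these sums. Counting set no option for reads that match more than 1 place, and the part of such reads in the mt-Co2 values was not tested. At an unadjusted p under 0.05 in edgeR, 8 of the 13 were lower and 0 higher, against 6.68% and 7.78% of all genes tested.

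Of 6 further nuclear subunits and cytochrome c genes that the naming rule left aside, 0 passed in either direction (median -0.02). Cyc1, the cytochrome c1 subunit of complex III, had the smallest p, with a log2 change of -0.12 (adjusted p = 0.382). Of 49 tested assembly factors, which build the complexes, 0 passed, 41 had a negative sign and the median was -0.08. In 16 of the 49 all prolactin libraries lay below all controls and in 1 above, against 10.4% and 11.3% of all genes tested. The median of this list ran from -0.10 to -0.05 when 1 library was left out. Cmc2, a factor linked to complex IV, had 8.11, 8.83 and 7.69 CPM in control and 6.51, 6.48 and 6.17 CPM in prolactin (log2 change -0.36, SE 0.08, adjusted p = 0.0817). The 2 groups did not overlap for Cmc2. It passed by DESeq2 (adjusted p = 0.00246), with the replicate block (adjusted p = 0.0463), without control 3 (adjusted p = 0.0416) and without a filter, and had an adjusted p of 0.338 with prolactin 2 and 3 summed. Of 17 regulators of mitochondrial biogenesis 0 passed (median 0.01). Pprc1, a coactivator of the PGC-1 family, had 41.0, 40.3 and 47.1 CPM against 51.2, 49.0 and 49.6 CPM (log2 change 0.22, adjusted p = 0.18, and 0.0303 without control 3). Of 13 enzymes of the tricarboxylic acid cycle 0 passed, and the smallest p was that of Sucla2 (log2 change -0.14, adjusted p = 0.455). Of 7 carriers and pores for ATP, ADP and phosphate 0 passed, with Slc25a4 at -0.13 (adjusted p = 0.489). Of 76 mitochondrial ribosomal proteins 0 passed and the median was -0.05, with Mrps25 at -0.25 (adjusted p = 0.147). Mrps25 passed by DESeq2 (adjusted p = 0.0416) and without control 3 (adjusted p = 0.0456), a fit in which 2 of the list were lower, and the list's median ran from -0.10 without control 3 to -0.01 without control 2. Of 80 cytosolic ribosomal proteins 0 passed, while 73 had a positive sign and the median was 0.09, with Rpl13a at 0.24 (adjusted p = 0.147, DESeq2 adjusted p = 0.0377). Without control 3 the median of this list was -0.01, and it ran up to 0.14 without control 2. At an unadjusted p under 0.05, the numbers lower were 0, 7, 1, 0, 0, 6 and 0 in these lists in the order given, and the numbers higher 0, 0, 2, 0, 0, 2 and 4. Among all genes tested, 6.68% were lower and 7.78% higher at that level.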

How the data were processed

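The 6 tables deposited by the authors hold raw counts, 1 per gene name, made with featureCounts 2.0.3 on GENCODE vM10 gene models, per the file headers. Per the submitters' processing notes, mm10, SAMtools 1.21, Subread 2.1.0 and DESeq2 were used. The aligner: not given in the sources used here. In the headers, the command sets no option for strand, for multi-mapping reads or for counting pairs, so reads shared with pseudogenes or overlapping genes are lost or not told apart, and each mate may be counted on its own. The 6 names that mark pseudogenes were left out of the members. A second table deposited by the authors holds, per the file headers, log2 fold changes and their errors, raw and adjusted p-values, the test statistic (a score) and each gene's mean signal. Its log2 fold changes differed from a DESeq2 run on the counts by at most 3.87e-09 over 40905 genes.

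The test was edgeR 4.0.16 (limma 3.58.1, R 4.3.3) on all genes, with TMM scaling, its expression filter (minimum count 10, minimum total 15), the condition as the only term, two-sided, and Benjamini-Hochberg adjustment over 23924 genes at 0.05. CPM and RPKM use TMM-scaled totals, log2 CPM a prior count of 2, and RPKM the deposited exon lengths. SE and intervals come from the test statistic and its degrees of freedom. The members and lists were chosen with earlier results of these data known, so lists have counts and medians and no test. Members named with values in every library, or with their range, were those past the threshold, the 2 smallest p-values and the highest RPKM per complex, the isoform groups, and the highest and lowest change at 5 CPM or more; from other lists, genes past the threshold and the smallest p. Ndufv3, Ndufa9, Ndufb6 and the genes with separated libraries were named after their values were seen. Alternatives were DESeq2 1.42.0, its size factors, upper-quartile scaling, 2 filters, limma-voom, a replicate block, each library left out in turn, a table without hormone and mitochondrially encoded genes, summing prolactin 2 and 3, placing Ndufa4 and Ndufa4l2 in complex IV, and dividing the counts by 2. The procedure was tested on simulated data. Every deposited column of counts was used.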

Additional observations from a re-analysis of the deposited data

How the results depend on the processing

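The count of 0 genes higher held in all 16 alternative settings, and the count of 0 lower held except without control 3, where it was 1 (leaving out 1 library at a time gave 0 to 1). The smallest adjusted p ran from 0.0322 to 0.492 over the settings. The median log2 change of the 81 genes ran from -0.10 to -0.01 when 1 library was left out, and from -0.04 to -0.03 in the other settings. Of the 28 respiratory chain genes that the naming rule took, 0 crossed the threshold in any setting, while Ndufa9, named outside it, did so without control 3. The 8 genes named from the other lists had 9 crossings: Cmc2 passed in 4 settings, Mrps25 in 2, Rpl13a in 1 and Pprc1 in 1, and mt-Co2 was lost in 1. Genes near 0 changed sign: Atp5g2 was 0.0073 with upper-quartile scaling and 0.0024 with a filter of 1 CPM in 3 libraries, and Cox7a1 was -0.0164 with limma-voom. When 1 library was left out, the ranges were Sdhd -0.1186 to 0.0077, Ndufa1 -0.1167 to 0.0152, Ndufa4 -0.0679 to 0.028, Ndufa4l2 -0.0717 to 0.2579, Cox4i1 -0.009 to 0.1, Cox6a1 -0.0764 to 0.0207, Cox7a1 -0.1184 to 0.0718, Cox7a2 -0.0885 to 0.0214, Cox7b -0.0234 to 0.0638, Atp5g1 -0.1084 to 0.0118, Atp5g2 -0.0731 to 0.0458, Atp5g3 -0.0688 to 0.0184. The number of negative changes among the 81 ran from 41 to 70 when 1 library was left out, and the medians of complex I (-0.11 to 0.01) and complex IV (-0.05 to 0.04) changed sign. With Ndufa4 and Ndufa4l2 in complex IV, the median log2 change was -0.05 for complex I and 0.00 for complex IV. Without the length term, 4 of the 10 highest genes by RPKM stayed among the 10 highest. Over all genes, the counts higher and lower were 156 and 25 in the main setting, 470 and 127 without a filter, 776 and 303 by DESeq2, 464 and 134 with the replicate block, 42 and 2 with prolactin 2 and 3 summed, and 179 and 46 with the filter of 1 CPM. Leaving out 1 library gave 39 to 342 higher and 1 to 234 lower.

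Correlations between libraries did not settle whether the replicate numbers pair the samples. Over 11590 genes, deviations of same-numbered libraries correlated at 0.54, 0.32 and 0.09. Control 1 correlated at -0.47 with prolactin 2 and -0.49 with prolactin 3. Control 2 correlated at 0.35 with prolactin 3, and control 3 at 0.09 with prolactin 2. Prolactin 2 and 3 were the most alike pair, so controls 2 and 3 could hardly tell them apart. With the replicate block, the counts of the 81 genes were 0 higher and 0 lower, against 1.94% and 0.56% of all genes. Their median log2 change was -0.04, while Cmc2 passed (adjusted p = 0.0463). Cox7b2, Cox8b and Cox8c, with at most 18 counts in a library, were too low for the test at this depth, and with 3 libraries per condition the intervals of the other genes rest on few samples.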
